A study of Homo sapiens with 12 samples.

Results

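The 5 thrombospondin genes THBS1, THBS2, THBS3, THBS4 and COMP were followed in Hs-578T and MDA-MB-231, 2 established lines from triple-negative breast cancers, which lack the receptors for oestrogen, progesterone and HER2. They were taken by gene name, as 5 of 32152 genes listed, of which 17665 were protein coding. The family was chosen by these data, on the RPKM values of THBS2 in MDA-MB-231 cells labelled ERK5-ko and in their parental cells, where its difference was the highest of any gene: on the fitted log2 scale it ranked 1 of 13737 genes tested, at 3.21, ahead of RGS5 at 2.93. Every value of a member in that contrast, and in contrasts that reuse those ERK5-ko libraries, is therefore a description and carries no test. So is every difference of THBS2 from the MDA-MB-231 parental libraries. THBS1, THBS2 and THBS3 passed the filter on low values, which asked for an RPKM of 0.5 or more in 2 or more libraries, and THBS4 and COMP did not. The unit throughout is RPKM, reads scaled to the length of the gene and to the total reads of the library. A gene was called where its limma p, adjusted over all 13737 genes, was under 0.05 and its fold on the log2(RPKM + 0.5) scale was above 1.5 or below 0.5. A fall thus had to be larger than a rise to be called, so that counts of calls lean to higher.

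The study asked what loss of the kinase ERK5, encoded by MAPK7, does in triple-negative cells with a mesenchymal look. RNA of 12 libraries was sequenced, 2 in each of 6 groups: parental controls, cells labelled ERK5-ko and cells labelled MEK5DD, in each line. The ERK5-ko cells were made with CRISPR/Cas9 and guides to exons 3 and 5 of MAPK7, and in MDA-MB-231 only 1 clone survived sorting, so that this group is 1 clone. Hs-578T ERK5-ko cells also came from clones, and which of them was sequenced is not given in the sources used here. MEK5DD usually names a mutant of MEK5 (gene MAP2K5), the kinase that activates ERK5, with acidic residues that keep it active, and how these lines were made is not given in the sources used here. No drug or other treatment was named for any group. The 2 libraries of a group carry consecutive numbers after the letter p in their descriptions, 29 and 30 in MDA-MB-231 parental, 7 and 8 in its ERK5-ko, 10 and 11 in its MEK5DD, 83 and 84 in Hs-578T parental, and 8 and 9 in both other Hs-578T groups. That number and the label cannot be told apart in any comparison with parental cells. Nothing says that the libraries of a group came from separate cultures, so that p-values measure the spread between these libraries, which may be technical.

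Thrombospondins are secreted glycoproteins of the extracellular matrix that bind calcium, matrix proteins, growth factors and cell surface receptors. THBS1 and THBS2 form trimers and carry type 1 repeats, through which they bind CD36 and restrain the growth of blood vessels, and THBS1 can activate latent TGF-beta. THBS3, THBS4 and COMP form pentamers, lack type 1 repeats, and are best known from cartilage, tendon and muscle. In tumours thrombospondins are made by stromal cells and platelets as well as by the tumour cells.

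Library totals, solved from the RPKM values, ran from 20248162 to 27791195 reads. MAPK7 RNA did not fall with the label ERK5-ko: its mean was 13.8 RPKM in MDA-MB-231 parental and 17.0 RPKM in ERK5-ko cells, and 14.97 and 17.95 RPKM in Hs-578T (log2 difference 0.29 and 0.26, limma adjusted p = 0.0709 and 0.0624). A total over the gene does not read a small edit in an exon, so this checks neither label. The study reports that ERK5 protein was much reduced on Western blots of ERK5-ko cells of both lines. It also states that clones were checked by qRT-PCR and Western blot. MAP2K5 rose in MDA-MB-231 MEK5DD, from 13.2 to 186 RPKM (limma adjusted p = 3.31e-10), and in Hs-578T MEK5DD it stood at 22.5 against 15.8 RPKM (log2 difference 0.50, limma adjusted p = 0.00492), a fold under the 1.5 required for a call. Of the genes that define triple-negative status, ESR1 was at 0.12 RPKM or less and PGR at 0.348 RPKM or less, while ERBB2 lay between 27.8 and 56.8 RPKM. VIM, the mesenchymal filament gene, lay between 1598 and 4067 RPKM. Of the 4 defining markers of endothelium, summed levels were 1.05 to 6.75 RPKM, those of the 3 platelet markers found were 0.144 to 0.768 RPKM, and of the leukocyte markers CD68, a gene of macrophages, lay between 23.2 and 108 RPKM, while PTPRC was at most 0.396 RPKM and CD3E was at 0 in 11 of 12 libraries. These are bulk libraries of cultured lines, in which fewer cells that express a gene and less of its RNA per cell cannot be told apart. Which cells carried the CD68 RNA was not tested.

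The promoters of the 3 expressed members are shown because the results turn on how these genes differ from each other. Each line holds the 250 bases before a RefSeq start, 5′ to 3′ on the gene's strand, in GRCh38.p14, and capitals mark matches on either strand to the letters of the TATA box, which are TATAAA, and to those bound by TEAD factors, which are GGAATG. THBS1 lies at chr15:39580829-39581078 on the plus strand, THBS2 at chr6:169253847-169254096 on the minus strand, and THBS3 has 2 starts on the minus strand, at chr1:155207898-155208147 inside the gene and at chr1:155209179-155209428 beyond the gene's end as the files give it.
THBS1: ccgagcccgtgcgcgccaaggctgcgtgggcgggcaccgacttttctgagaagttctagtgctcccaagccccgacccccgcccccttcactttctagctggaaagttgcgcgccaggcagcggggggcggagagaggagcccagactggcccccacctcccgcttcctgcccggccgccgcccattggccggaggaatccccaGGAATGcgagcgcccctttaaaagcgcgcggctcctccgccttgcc
THBS2: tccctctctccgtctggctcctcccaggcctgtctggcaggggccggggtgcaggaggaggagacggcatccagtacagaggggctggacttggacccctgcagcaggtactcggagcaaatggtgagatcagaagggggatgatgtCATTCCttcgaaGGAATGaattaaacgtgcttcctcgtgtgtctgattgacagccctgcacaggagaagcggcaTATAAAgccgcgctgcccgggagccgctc
THBS3, start inside the gene: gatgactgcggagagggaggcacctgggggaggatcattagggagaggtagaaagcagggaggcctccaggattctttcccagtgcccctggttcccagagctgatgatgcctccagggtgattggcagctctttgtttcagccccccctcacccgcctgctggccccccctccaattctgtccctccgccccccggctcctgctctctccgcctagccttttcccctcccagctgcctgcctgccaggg
THBS3, outer start: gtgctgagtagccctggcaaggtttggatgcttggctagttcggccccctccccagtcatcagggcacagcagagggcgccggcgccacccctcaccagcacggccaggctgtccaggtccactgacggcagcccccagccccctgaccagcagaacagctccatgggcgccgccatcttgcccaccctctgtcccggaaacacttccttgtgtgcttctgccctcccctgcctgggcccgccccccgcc
THBS2 held a TATA box 29 bases before its start and 2 TEAD matches, 103 and 91 bases before it on opposite strands. THBS1 held 1 TEAD match 46 bases before its start and no TATAAA, and neither THBS3 window held either motif. The COMP window held 1 TEAD match and those of THBS4 none. Of 35116 RefSeq promoters of the same length, 10.7% held TATAAA and 11.9% held GGAATG. THBS1 also held 4 matches to GGGCGG (GC box, in 42.6% of promoters) and 1 to CCAAT (in 32.0%), whereas THBS2 held neither. No window of THBS1, THBS2 or THBS3 held TGANTCA (the letters of AP-1, in 6.57% of promoters), which says only that these letters were not in these windows.

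THBS1 (ENSG00000137801.10, chr15:39581079-39599466, plus strand), the most studied member and the one that activates TGF-beta, was by far the most abundant. Its level was 571 and 625 RPKM in the MDA-MB-231 parental libraries, 1574 and 1201 RPKM in ERK5-ko, and 1210.4 and 1135 RPKM in MEK5DD. In Hs-578T it was 1059.6 and 1463 RPKM in parental cells, 1451 and 1466 RPKM in ERK5-ko, and 1303 and 1772 RPKM in MEK5DD. The 2 MDA-MB-231 parental libraries lay below the other 10, and the other 5 groups overlapped each with its neighbour in the order of means. As a mean ± SD (n = 2), MDA-MB-231 parental cells held 598 ± 38.4 RPKM and the highest group, Hs-578T MEK5DD, 1537 ± 331 RPKM.

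THBS2 (ENSG00000186340.14, chr6:169215780-169254044, minus strand), a close relative of THBS1 that also restrains angiogenesis, spanned the widest range. It was 2.11 and 2.28 RPKM in MDA-MB-231 parental libraries and 27.1 and 21.9 RPKM in ERK5-ko. In MDA-MB-231 MEK5DD it was 0.0370 and 0.0321 RPKM, which is 2 reads in each library. In Hs-578T it was 1.70 and 2.73 RPKM in parental cells, 0.628 and 0.570 RPKM in ERK5-ko, and 2.49 and 2.56 RPKM in MEK5DD. In the order of means, MDA-MB-231 ERK5-ko stood alone at the top, the parental groups and Hs-578T MEK5DD overlapped, and Hs-578T ERK5-ko and then MDA-MB-231 MEK5DD stood apart below them.

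THBS3 (ENSG00000169231.13, chr1:155195588-155209051, minus strand), a pentameric member expressed in bone and cartilage, was 3.89 and 4.0 RPKM in MDA-MB-231 parental libraries, 5.30 and 4.59 RPKM in ERK5-ko, and 1.52 and 1.57 RPKM in MEK5DD. In Hs-578T it was 17.0 and 18.2 RPKM in parental cells, 4.10 and 3.85 RPKM in ERK5-ko, and 21.0 and 20.4 RPKM in MEK5DD. Hs-578T ERK5-ko thus overlapped MDA-MB-231 parental cells, and no other neighbours in the order of means overlapped.

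**Figure D1:**
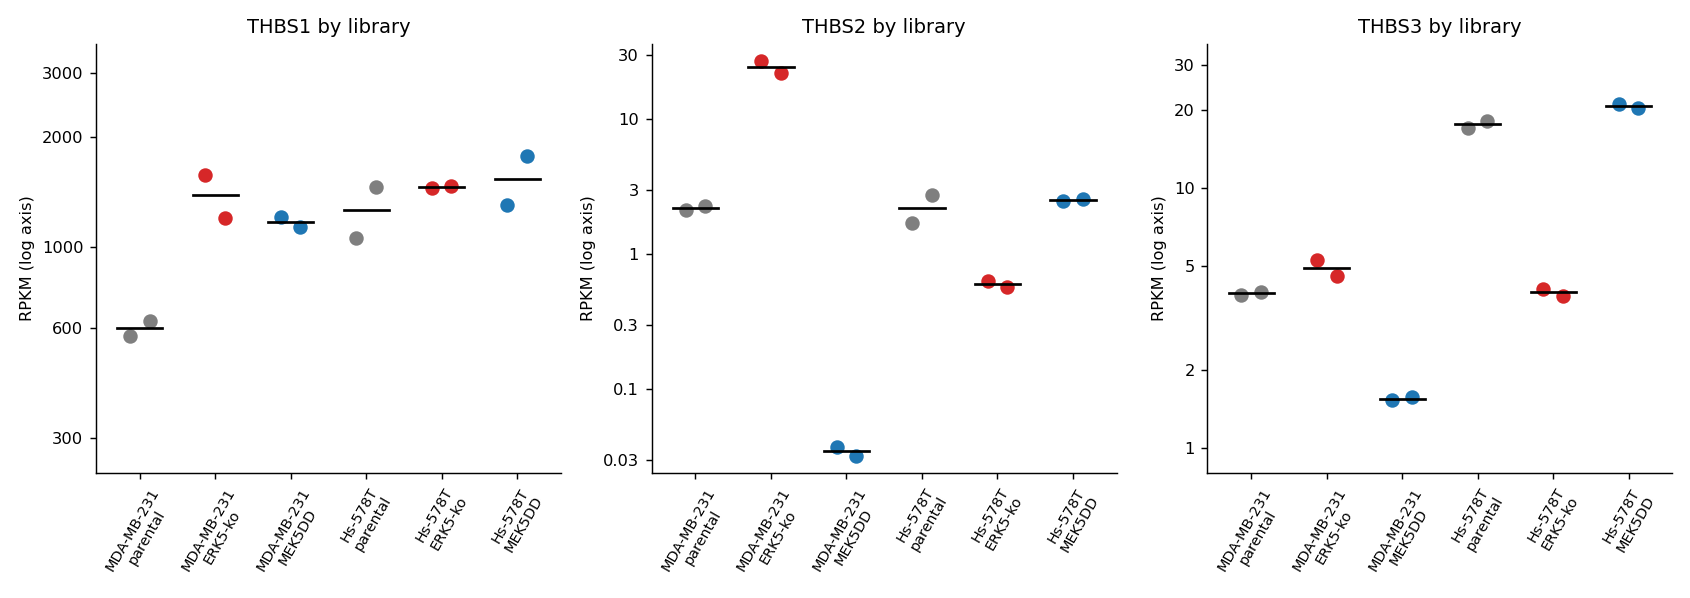
RPKM of THBS1, THBS2 and THBS3 in the 12 libraries, on log axes. Each point is a library and each line the mean of a group's 2 libraries. THBS2 ran from 0.0321 to 27.1 RPKM, both within MDA-MB-231, and THBS3 fell from 17.6 to 3.98 RPKM between Hs-578T parental and ERK5-ko cells.

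THBS4 (ENSG00000113296.14, chr5:79991311-80083287, plus strand), a member of tendon and muscle matrix, had between 1 and 17 reads a library and at most 0.554 RPKM, the highest being a Hs-578T parental library. COMP (ENSG00000105664.10, chr19:18782773-18791314, minus strand), the cartilage oligomeric matrix protein, had 1 read in 1 Hs-578T ERK5-ko library and 0 in the other 11, where a count of 0 allows up to 0.0742 RPKM at the shallowest library. With the filter lifted, neither was called in any of 6 comparisons. For THBS4 the adjusted p was under 0.05 in 1 of them, MDA-MB-231 against Hs-578T parental (0.0154, limma), with 4 against 23 reads in all.

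RPKM is per length, so levels of members can be set side by side, within the limit that the length used was the mean over annotated transcripts. On that scale THBS1 made up 97.9% to 99.9% of the group mean shares of the summed level of the family, and 95.7% to 99.6% when reads were divided by the longest transcript instead. THBS1 over THBS2 was 271 and 275 in MDA-MB-231 parental libraries, 58.1 and 54.9 in ERK5-ko, and 32679 and 35328 in MEK5DD, the last resting on 2 reads of THBS2 a library. In Hs-578T that ratio was 625 and 536 in parental cells, 2310 and 2572 in ERK5-ko, and 524 and 691 in MEK5DD. THBS2 exceeded THBS3 in the 2 MDA-MB-231 ERK5-ko libraries (ratio 5.11 and 4.77, and 3.61 and 3.38 on the longest transcripts), and stood below it in the other 10, at 0.569 or less. The members share no stretch of 50 identical bases between their transcripts in any pair.

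**Figure D2:**
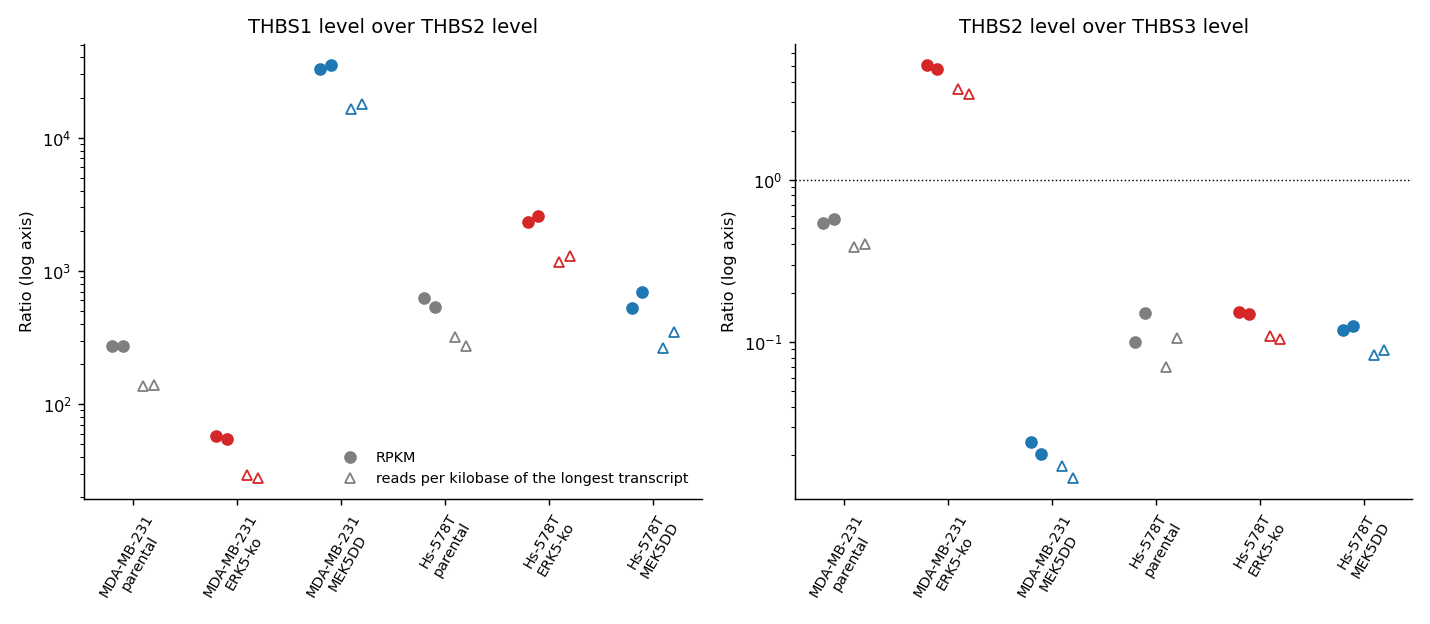
Ratio of the THBS1 level to the THBS2 level (left) and of THBS2 to THBS3 (right) in each library, on log axes, with filled circles for RPKM and open triangles for reads per kilobase of the longest transcript. The dotted line marks equal levels, and the 2 MDA-MB-231 ERK5-ko libraries are the ones above it on both scales.

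In the contrast that chose the family, MDA-MB-231 ERK5-ko against parental, THBS2 stood at 24.5 ± 3.68 against 2.19 ± 0.118 RPKM (SD, n = 2). Its ratio of means was 11.2, and the fitted log2 difference 3.21 (SE 0.17). THBS1 stood at 2.32 times the parental mean and THBS3 at 1.25 times, with fitted log2 differences of 1.2 (SE 0.19) and 0.29 (SE 0.10). Without the second ERK5-ko library the difference of THBS3 was 0.38, and without the first 0.19. Against MEK5DD libraries of the same line, the fitted log2 difference of ERK5-ko was 5.54 for THBS2, a size that depends on the pseudocount, 1.41 for THBS3 and 0.23 for THBS1. That of THBS1 was 0.035 without the first ERK5-ko library and 0.43 without the second.

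In Hs-578T, where the ERK5-ko libraries had no part in the choice, THBS2 and THBS3 fell against parental cells and THBS1 did not pass the test. THBS3 fell from 17.6 ± 0.828 to 3.98 ± 0.177 RPKM, 4.43-fold by the means (log2 difference -2.02, SE 0.10, limma adjusted p = 1.4e-07). THBS2 fell from 2.21 ± 0.731 to 0.599 ± 0.0411 RPKM, 3.69-fold by the means (log2 difference -1.28, SE 0.17, limma adjusted p = 0.00013). With a pseudocount of 1 in place of 0.5, or without the second parental library, the fold of THBS2 on the fitted scale no longer reached the threshold (log2 difference -0.99 and -1.0, limma adjusted p = 0.000261 and 0.000527). THBS1 differed by 0.23 (95% interval -0.18 to 0.64, limma adjusted p = 0.360). The calls were thus 2 of 3 members lower, where 3.27% of all genes tested were called lower and 9.35% higher.

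Hs-578T ERK5-ko was also compared with MEK5DD, with the same ERK5-ko libraries as in the comparison with parental cells. The 2 groups carry like numbers after the letter p. What that number means is not given in the sources used here, and its part in the differences was not tested. THBS3 was 5.20-fold lower by the means in ERK5-ko (log2 difference -2.24, SE 0.10, limma adjusted p = 3.33e-08). THBS2 was 4.21-fold lower (log2 difference -1.46, SE 0.17, limma adjusted p = 2.89e-05). THBS1 differed by -0.06 (95% interval -0.47 to 0.35, limma adjusted p = 0.818). Over all genes, 3.96% were called lower and 15.3% higher in this comparison.

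MEK5DD cells of the MDA-MB-231 line were compared with the parental libraries that also served in the contrast that chose the family. For THBS2, given as a description, the 2 MEK5DD libraries held 4 reads against 259 in the parental ones, a ratio of 0.0157 at equal depth with a counting interval of 0.0042 to 0.0406 (95%, counting error only). The fitted log2 difference was -2.33 (SE 0.17), a size that depends on the pseudocount. THBS3 fell 2.55-fold by the means (log2 difference -1.12, SE 0.10, limma adjusted p = 5.93e-06), and its fold missed the threshold with a pseudocount of 1 and under quantile normalization (-0.96 and -0.90). THBS1 rose 1.96-fold (log2 difference 0.97, SE 0.19, limma adjusted p = 0.00144). Of the 2 members tested, 1 was thus called higher and 1 lower, where 7.64% of genes tested were called higher and 6.31% lower (54.7% of calls higher, and 65.7% under quantile normalization). By the limma adjusted p alone, 2410 genes were higher and 3263 lower, and 3162 and 2812 under quantile normalization.

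In Hs-578T MEK5DD against parental cells, 0 of the 3 tested members passed in limma, 0 had an unadjusted p under 0.05 and 0 were called by limma voom on reads, where 2.9% of genes were called higher and 1.49% lower. THBS3 stood at 20.7 ± 0.491 against 17.6 ± 0.828 RPKM, with no overlap between the libraries (log2 difference 0.23, 95% interval -0.0011 to 0.45, limma adjusted p = 0.141). Over the alternatives run, the lowest limma adjusted p of THBS3 was 0.0423. Its difference was at most 0.32, short of the fold threshold. THBS2 differed by 0.18 (95% interval -0.18 to 0.55, limma adjusted p = 0.469) and THBS1 by 0.29 (95% interval -0.12 to 0.70, limma adjusted p = 0.30). MAP2K5 itself stood at 22.5 against 15.8 RPKM in these groups, a fold under that required for a call.

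The MEK5DD differences were set against each other between the lines in 1 contrast. That of THBS3 in MDA-MB-231 minus that in Hs-578T was -1.35 on the log2 scale (limma adjusted p = 3.57e-05), where 6.89% of genes were called lower and 15.3% higher. For THBS1 the contrast was 0.68 (SE 0.26, limma adjusted p = 0.0596), and 0.0182 once replicate numbers entered as a block, which then makes it a call. As a description, the same quantity for THBS2 was -2.51. For MAP2K5 itself the contrast was 3.26 (limma adjusted p = 4.84e-08). The label MEK5DD thus did not stand for like rises of MAP2K5 RNA in the 2 lines. The ERK5-ko differences went opposite ways in the lines for THBS2 and THBS3, by 4.48 and 2.31 on the log2 scale, as a description. The MDA-MB-231 part of this was only 0.29 for THBS3.

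**Figure D3:**
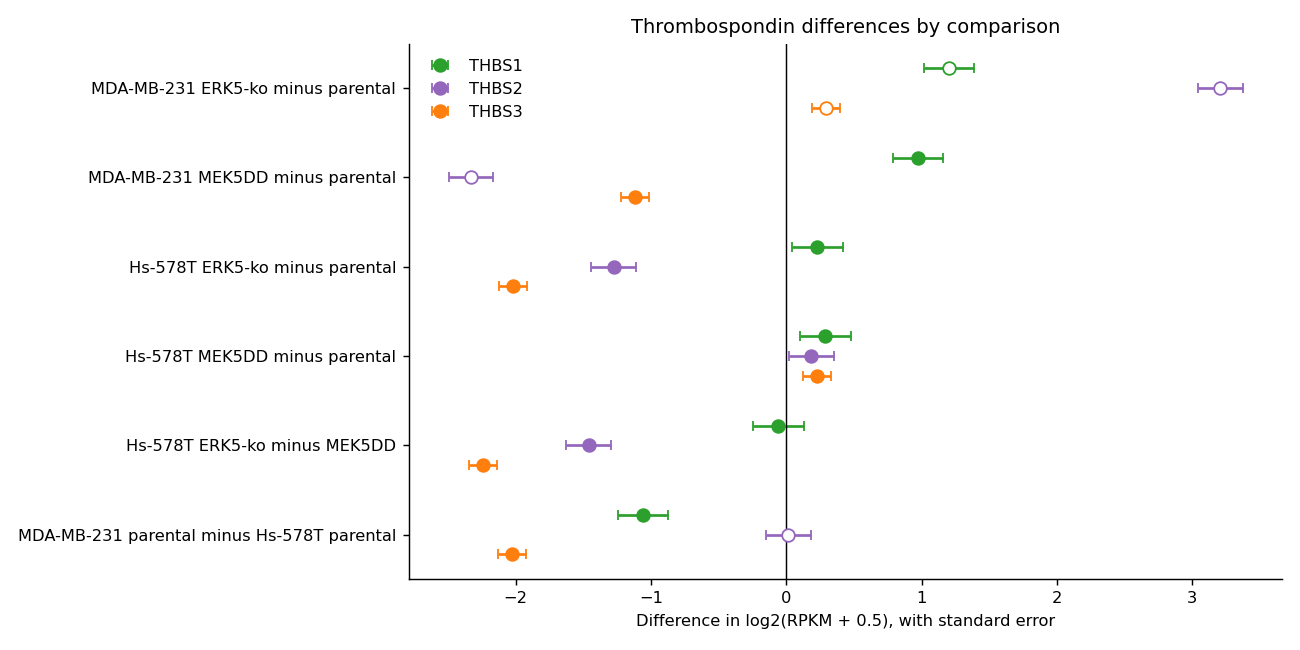
Difference in log2(RPKM + 0.5) with its standard error for THBS1, THBS2 and THBS3 in 6 comparisons. Open circles mark descriptions, which are the contrast that chose the family and THBS2 wherever MDA-MB-231 parental libraries enter, and filled circles mark differences with a test. THBS2 and THBS3 lie left of 0 in MDA-MB-231 MEK5DD and in Hs-578T ERK5-ko, and all 3 lie within 0.29 of 0 in Hs-578T MEK5DD.

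Between the parental lines, THBS3 was 4.47-fold lower in MDA-MB-231 than in Hs-578T by the means (log2 difference -2.03, SE 0.10, limma adjusted p = 5.3e-09). THBS1 was 2.11-fold lower (log2 difference -1.06, SE 0.19, limma adjusted p = 0.000271), and without MDA-MB-231 parental replicate 1, without Hs-578T parental replicate 2 or under quantile normalization its fold missed the threshold (-0.99, -0.83 and -0.78). The difference of THBS2, as a description, was 0.01, with a sign that turned without 1 library. So 2 of 2 members tested were called lower, where 15.4% of genes were called lower and 34.1% higher. Median-ratio scaling shifted the median of all genes in this comparison by -0.21 and took the share of calls that were higher from 68.8% to 58.2%. Relative to the median of all genes, 0.19, the differences of THBS3 and THBS1 were larger in size.

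The summed level of markers of luminal epithelium moved with some of these differences, though not each marker did. Their summed level over 6 genes was 1557 to 1661 RPKM in MDA-MB-231 parental libraries, 2616 to 2627 RPKM in ERK5-ko, where THBS2 was highest, and 1174 to 1222 RPKM in MEK5DD, where it was lowest. In MDA-MB-231 these sums are mostly KRT8, KRT18 and KRT19. GATA3 was 6.04 and 6.84 RPKM in MDA-MB-231 parental and 7.84 and 6.95 RPKM in ERK5-ko libraries. In Hs-578T the sum was 194 to 268 RPKM in parental cells, 587 to 635 RPKM in ERK5-ko, where THBS2 and THBS3 fell, and 233 to 259 RPKM in MEK5DD. The higher sum in Hs-578T ERK5-ko came mainly from KRT18, at 213 and 141 RPKM in parental and 547 and 596 RPKM in ERK5-ko libraries. GATA3, at a lower level, also rose there, from 3.77 and 4.76 to 9.21 and 9.34 RPKM. KRT8 on the same list went the other way there, from 50.7 and 46.9 to 29.7 and 27.9 RPKM, and EPCAM and KRT19 stayed at 0.354 RPKM or less in both groups. CDH1, the epithelial cadherin, was at most 1.16 RPKM in any library and at 0 in 1 MDA-MB-231 MEK5DD library. In Hs-578T it was 0.119 and 0.218 RPKM in parental and 0.930 and 1.16 RPKM in ERK5-ko libraries. In MDA-MB-231 CDH1 was 0.640 and 0.650 RPKM in parental and 0.640 and 0.579 RPKM in ERK5-ko libraries. For MDA-MB-231 ERK5-ko cells the study reports a rise of the CDH1 transcript. The summed level of 4 mesenchymal markers was 1684 to 1834 RPKM in MDA-MB-231 parental, 1654 to 1709 RPKM in ERK5-ko and 3535 to 3612 RPKM in MEK5DD libraries. In Hs-578T that sum was 5612 to 6885 RPKM in parental, 6537 to 6850 RPKM in ERK5-ko and 5520 to 6798 RPKM in MEK5DD libraries, so that the sums overlapped. These sums are mostly VIM and, in Hs-578T, FN1, which overlapped between parental and ERK5-ko in each line. In Hs-578T, CDH2 was 135 and 146 RPKM in parental and 219 and 248 RPKM in ERK5-ko libraries, and ZEB1 22.3 and 28.7 against 32.7 and 33.3 RPKM. In MDA-MB-231, ZEB1 was 30.2 and 31.0 against 22.6 and 19.1 RPKM, and CDH2 was at most 0.524 RPKM. CD68 was 62.5 and 69.0 RPKM in MDA-MB-231 parental and 108 and 107 RPKM in MEK5DD libraries, and 37.9 and 43.6 RPKM in Hs-578T parental and 25.6 and 23.2 RPKM in ERK5-ko libraries. The part of these markers in the differences of the thrombospondins was not tested.

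Some annotated genes overlap the members, and the strand setting of the counting is not given in the sources used here. FSIP1, on the opposite strand, shares 448 exon bases with THBS1 and had 9 to 68 reads a library, beside 21465 to 57894 for THBS1. RP11-263K19.4, on the opposite strand, shares 1027 exon bases with THBS3 and had 3 to 33 reads, and MTX1 shares 146 and had 301 to 560. No listed gene shares exon bases with THBS2, whose opposite-strand neighbour XXyac-YX65C7_A.2 had 0 to 10 reads. CTD-2033D15.2, which lies in an intron of THBS1 on the same strand, had 69 and 73 reads in MDA-MB-231 parental libraries, 136 and 151 in ERK5-ko, and 140 and 142 in MEK5DD. In Hs-578T its reads were 104 and 109 in parental cells, 97 and 101 in ERK5-ko, and 107 and 111 in MEK5DD. CTD-2033D15.3 and CTD-2201I18.1, opposite to THBS1 and THBS4, had at most 2 and 6 reads.

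Partners of the family were taken as 80 symbols in 5 lists, of which 78 were listed and 65 tested. In Hs-578T ERK5-ko 7 rose and 9 fell, in MDA-MB-231 MEK5DD 6 rose and 7 fell, and in Hs-578T MEK5DD 3 rose and 1 fell. As shares of the 65 this is 10.8% higher and 13.8% lower in Hs-578T ERK5-ko, against 9.35% and 3.27% of all genes tested. In MDA-MB-231 MEK5DD it is 9.23% and 10.8% against 7.64% and 6.31%, and in Hs-578T MEK5DD 4.62% and 1.54% against 2.9% and 1.49%. Nothing particular to the partners was tested. In the contrast that chose the family, 1 stood higher and 2 lower by the same thresholds, as a description, where 2.8% of all genes were called higher and 1.07% lower: TGFB2, a growth factor activated from a latent form, went from 34.5 to 76.8 RPKM, LTBP1, which binds latent TGF-beta, from 9.71 to 4.22 RPKM, and SEMA5A, a guidance protein with type 1 repeats, from 0.907 to 0.0431 RPKM.

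Among receptors and cell surface partners, 14 of 16 symbols were tested, and 1 was called in Hs-578T ERK5-ko and 1 in MDA-MB-231 MEK5DD. CACNA2D1, a receptor of thrombospondins at synapses, rose in Hs-578T ERK5-ko from 9.58 to 14.5 RPKM, just past the fold threshold (log2 difference 0.5859, limma adjusted p = 0.0282). Its difference in MDA-MB-231 ERK5-ko, as a description, was 0.5844. ITGB3, a subunit of the integrin alpha-v beta-3 that binds thrombospondins, fell in MDA-MB-231 MEK5DD from 5.03 to 1.47 RPKM (limma adjusted p = 8.46e-06). ITGAV, its other subunit, went there from 77.4 to 38.5 RPKM, just short of the fold threshold (log2 difference -0.9986, limma adjusted p = 2.5e-05). The median of the list there was -0.35, against -0.01 over all genes, and in Hs-578T ERK5-ko 0.02 against 0.01. In Hs-578T MEK5DD limma called 0, and the median was -0.29 against -0.08.

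Of the matrix partners, growth factors and proteases, 17 of 20 symbols were tested. In Hs-578T ERK5-ko 2 rose and 4 fell, with a median of 0.11. HTRA1, a secreted protease, fell from 160.5 to 33.1 RPKM (limma adjusted p = 5.3e-08), DCN, the matrix proteoglycan decorin, from 396 to 92.2 RPKM (limma adjusted p = 2.41e-06), and ADAMTS7, a protease that cleaves COMP, from 8.33 to 3.51 RPKM (limma adjusted p = 6.34e-05). ADAMTS1, a protease that cleaves THBS1 and THBS2, rose from 21.2 to 54.7 RPKM (limma adjusted p = 2.41e-05). In MDA-MB-231 MEK5DD 3 rose and 3 fell, with a median of -0.03. ADAMTS1 rose there from 2.83 to 22.6 RPKM (limma adjusted p = 3.45e-08), while ADAMTS12, which also cleaves COMP, fell from 40.0 to 10.8 RPKM (limma adjusted p = 8.51e-06), VEGFA, the angiogenic factor, from 125 to 45.7 RPKM (limma adjusted p = 4.94e-07), and HTRA1 from 119.5 to 49.1 RPKM (limma adjusted p = 2.06e-06). In Hs-578T MEK5DD, FGF2, a growth factor, rose from 4.42 to 10.6 RPKM (limma adjusted p = 0.000153) and nothing on the list fell, with a median of 0.01.

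Other proteins with type 1 repeats, 19 of 29 tested, moved both ways. In Hs-578T ERK5-ko 3 rose and 4 fell, with a median of 0.04: CTGF, a matricellular protein and known target of YAP and TEAD, rose from 232 to 546 RPKM (limma adjusted p = 1.16e-05), while SEMA5A fell from 54.4 to 20.3 RPKM (limma adjusted p = 0.00198) and SPON2, a secreted matrix protein, from 4.46 to 1.71 RPKM (limma adjusted p = 0.00376). WISP2, of the same family as CTGF, fell from 1.37 and 2.07 to 0.0673 and 0.0729 RPKM, 3 reads or fewer a library. In MDA-MB-231 MEK5DD 2 rose and 3 fell, with a median of 0.00: NOV, another relative of CTGF, rose from 5.94 to 14.3 RPKM (limma adjusted p = 3.68e-05), and SPON2 fell from 4.97 to 0.188 RPKM (limma adjusted p = 4.86e-06) and ADGRB2, an adhesion receptor, from 1.92 to 0.136 RPKM (limma adjusted p = 2.54e-07). ADAMTSL2 fell there from 0.799 and 0.791 to 0.0104 and 0.00901 RPKM, also 3 reads or fewer a library. In Hs-578T MEK5DD 2 rose and none fell, with a median of -0.07: SEMA5A from 54.4 to 111 RPKM (limma adjusted p = 0.0136) and SPON2 from 4.46 to 8.85 RPKM (limma adjusted p = 0.0314).

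The 6 genes that glycosylate and fold thrombospondin repeats had 1 call, DPY19L3, a C-mannosyltransferase, which rose in MDA-MB-231 MEK5DD from 8.54 to 13.5 RPKM (limma adjusted p = 0.000925). Medians of this list in the 3 tested comparisons ran from -0.19 to 0.06. Of 9 known regulators, EGR1, an immediate-early factor, fell in Hs-578T ERK5-ko from 17.8 to 4.89 RPKM (limma adjusted p = 0.00598), with parental libraries at 25.2 and 10.3 RPKM, and YAP1, the partner of TEAD factors, rose from 39.3 to 68.9 RPKM (limma adjusted p = 0.00127). ID1, a repressor of THBS1, fell in Hs-578T MEK5DD from 6.83 to 2.76 RPKM (limma adjusted p = 0.000621). Their medians were 0.23, 0.03 and -0.22 in Hs-578T ERK5-ko, MDA-MB-231 MEK5DD and Hs-578T MEK5DD.

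**Figure D4:**
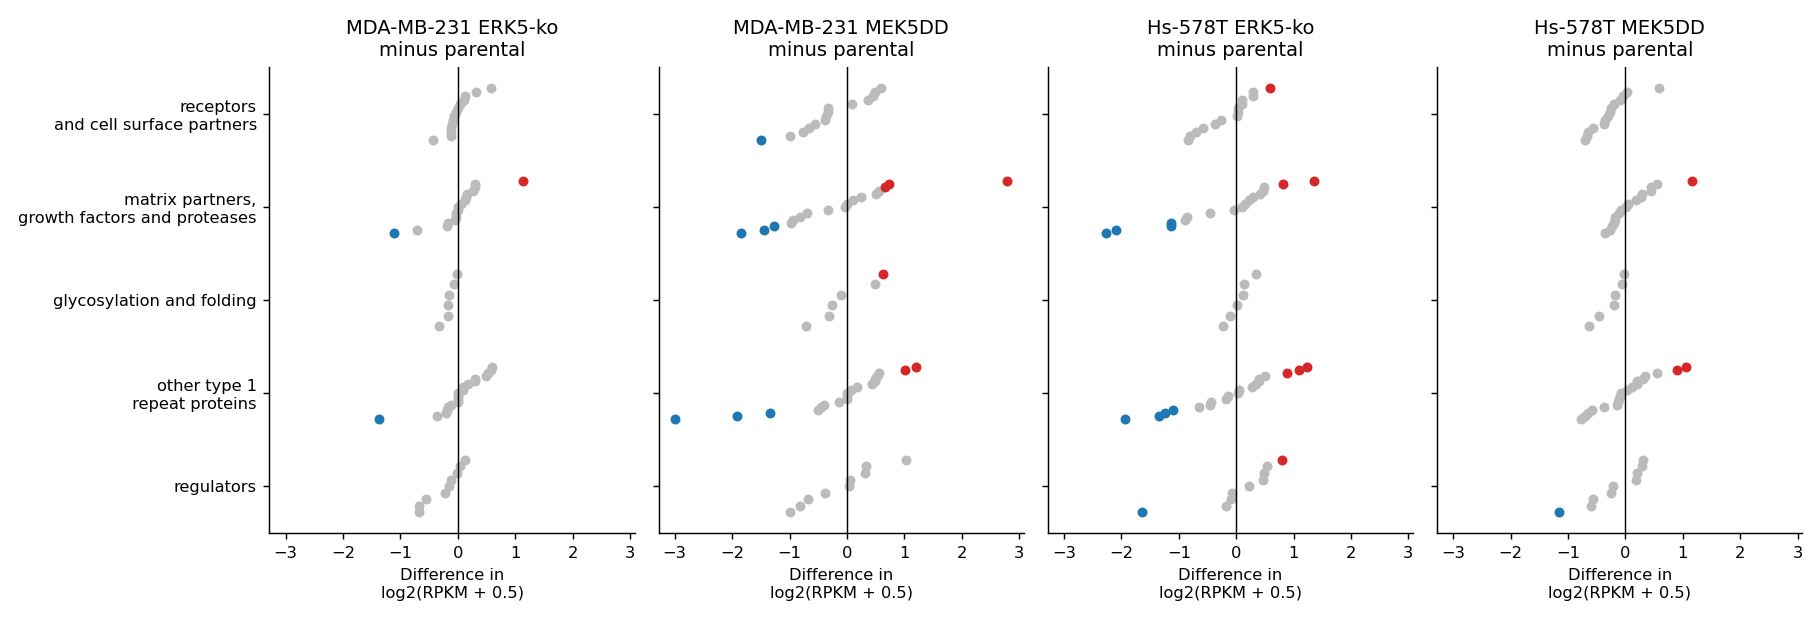
Difference in log2(RPKM + 0.5) for each of the 65 tested partner genes, by list, in 4 comparisons with parental cells. Red points were called higher, blue points lower and grey points were not called, with 7 red and 9 blue in Hs-578T ERK5-ko and 6 red and 7 blue in MDA-MB-231 MEK5DD.

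The genes whose pattern over the 12 libraries was most like that of THBS2, by Pearson correlation of log2 values among the 12422 genes averaging 1 RPKM or more, were JUND (0.97), PRMT2 (0.96), VAT1 (0.95), RSPH3 (0.95) and HEBP2 (0.94). These correlations are a description over libraries that fall into 6 groups, and THBS2 was chosen for 1 of those groups. JUND, a subunit of the AP-1 factor, had group means of 81.5, 133 and 48.7 RPKM in MDA-MB-231 parental, ERK5-ko and MEK5DD cells, and 84.9, 63.6 and 86.3 RPKM in Hs-578T. Ranking by Spearman correlation kept 1 of the 5, RSPH3. For THBS1 the nearest genes were ZMPSTE24 (0.87), TIPARP (0.83), GDPD1 (0.83), KIFAP3 (0.80) and NDUFAF1 (0.79), and the Spearman ranking kept 0 of these 5.

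**Figure D5:**
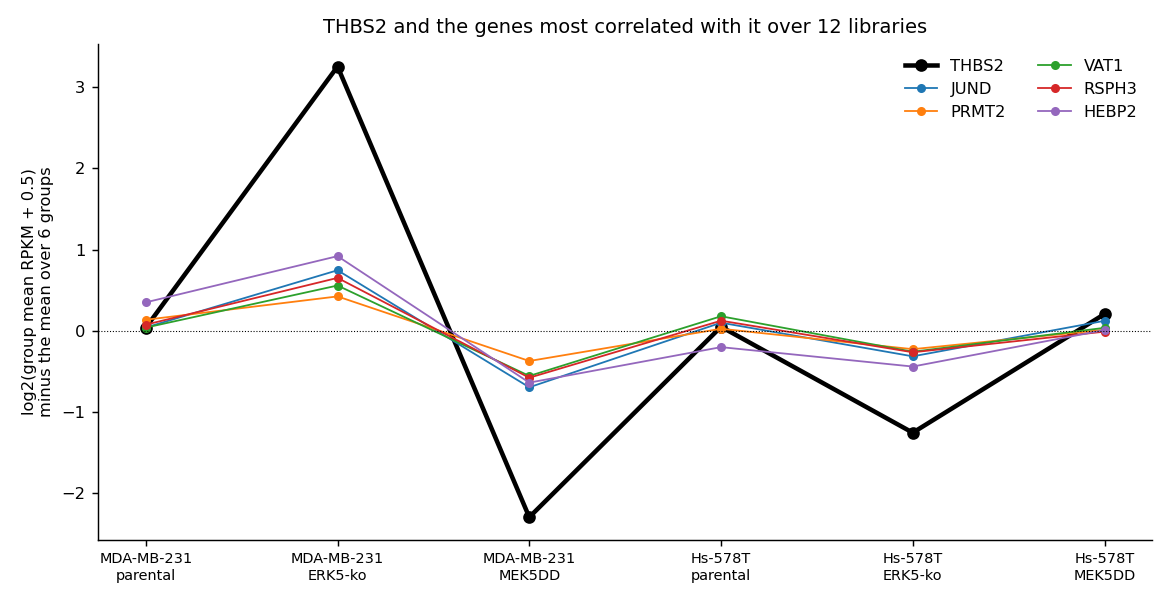
Group means of THBS2 and its 5 most correlated genes as log2(RPKM + 0.5), each minus its own mean over the 6 groups. All 6 genes are highest in MDA-MB-231 ERK5-ko and lowest in MDA-MB-231 MEK5DD, and the swing of THBS2 is the widest. The 5 genes were picked for likeness to THBS2 over these libraries, and THBS2 for its rise, so neither trait is a separate result.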

How the data were processed

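RNA of 12 libraries was analysed, grouped by cell line and label. The authors deposited RPKM values per gene, 1 column a library. The submitters' processing notes name Trimmomatic 0.32, TopHat2 2.1.1, R 3.3.1, DESeq2 1.12.4 and GRCh38 without their roles, and the counting tool is not given in the sources used here. The labels name a stranded mRNA kit. Totals at which all 32152 genes (100%) became whole reads within 0.0001 read were solved from the values, with 0 of 200 control genes whole at wrong totals, and the gene length so found was the mean of the GENCODE 29 transcript lengths to within 1 base for 99.1% of 27628 shared identifiers. The length enters every level: 1521 bases for THBS1, whose longest transcript has 7775. THBS2 is not among the shared identifiers, since GENCODE 29 holds another version of it. Its length so found was 2245 bases, against a GENCODE 29 mean of 2735, so its level and its ratios to other members rest on a length that was not matched.

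Members and lists were chosen with earlier results of these data known, and THBS2 in contrasts with MDA-MB-231 parental libraries, for which a test had been designed, was given as a description. limma 3.58.1 was fitted in R 4.3.3 to log2(RPKM + 0.5) of the 13737 protein-coding genes tested, with 6 group means, a trend and 6 residual degrees of freedom. Fold changes on this scale understate those of low genes. The smallest two-sided exact permutation p for 2 against 2 libraries is 0.333, so none was run. Calls used the study's thresholds. The partner genes named were those called, at most 4 a list and comparison, of largest change. The script was tested on simulated data. Same-numbered libraries deviated together (correlations 0.107 to 0.541 over 6 pairs), so a replicate block was tried, as were other pseudocounts, filters, scalings, limma voom on the recovered reads and leaving out each library. Dividing by the longest transcript was chosen after seeing the data. Floors are 3 reads, and intervals cover counting error only. Promoters are from RefSeq (GRCh38.p14), and all 5 members matched.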

Additional observations from a re-analysis of the deposited data

Results flagged for a closer look

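3 results stood out because the effect of a label differed between the lines. The MEK5DD difference in MDA-MB-231 minus that in Hs-578T was -1.35 for THBS3 on the log2 scale, by a test of the difference itself (limma adjusted p = 3.57e-05). With that label, MAP2K5 RNA rose from 13.2 to 186 RPKM in MDA-MB-231 and stood at 22.5 against 15.8 RPKM in Hs-578T. The ERK5-ko difference in MDA-MB-231 minus that in Hs-578T was 4.48 for THBS2 and 2.31 for THBS3. Both MDA-MB-231 ERK5-ko libraries lay above the parental ones and both Hs-578T ERK5-ko libraries below them, and this difference was not tested. For THBS3 most of it was the fall in Hs-578T, at -2.02, beside 0.29 in MDA-MB-231.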

How the results depend on the processing

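Precision is limited by 2 libraries a group and, for THBS2 in MDA-MB-231 MEK5DD, by 4 reads. The MDA-MB-231 ERK5-ko group is 1 clone, and the number after the letter p moves with the label. The calls of THBS1 in MDA-MB-231 MEK5DD, of THBS3 in Hs-578T ERK5-ko and between parental lines, of THBS2 and THBS3 in Hs-578T ERK5-ko against MEK5DD, and of the MEK5DD difference of THBS3 between lines kept their direction and their side of the thresholds under each alternative run, leaving out each library included. Where values below changed, the cause was not tested.

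With a pseudocount of 1, the log2 difference of THBS2 in Hs-578T ERK5-ko was -0.99 and that of THBS3 in MDA-MB-231 MEK5DD -0.96 (-0.90 under quantile normalization), all short of the fold threshold. THBS1 between parental lines was -0.78 under quantile normalization, also short of it. The THBS1 difference between MEK5DD effects, 0.68, became a call with a replicate block (0.68, limma adjusted p = 0.0182) and with limma voom on reads (0.69, adjusted p = 0.0484), and the block changed no other call of a member. THBS1 in Hs-578T ERK5-ko against MEK5DD turned to 0.14 under quantile normalization, and the untested THBS2 value between parental lines to -0.18 under median-ratio scaling, the former not past the test.

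Leaving out 1 library, THBS1 in Hs-578T ERK5-ko ranged from -0.0042 (without Hs-578T parental replicate 1) to 0.46, THBS2 there from -1.56 to -1.0 (without parental replicate 2), and THBS2 in Hs-578T MEK5DD from -0.10 (without parental replicate 1) to 0.46. THBS1 in Hs-578T ERK5-ko against MEK5DD ranged from -0.28 to 0.16 (without MEK5DD replicate 2). Between parental lines THBS1 ranged from -1.29 to -0.83 and THBS2 from -0.26 to 0.29. The THBS1 difference between MEK5DD effects ranged from 0.45 to 0.92 and was past the test without Hs-578T parental replicate 1 or MEK5DD replicate 2.

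Of the values without a test, THBS1 moved by leaving out a library, from 0.035 to 0.43 in MDA-MB-231 ERK5-ko against MEK5DD and from 1.007 to 1.397 against parental. Both were lowest without ERK5-ko replicate 1 and highest without replicate 2. The ERK5-ko difference between lines so ranged from 0.74 to 1.21 for THBS1 and from 4.21 to 4.76 for THBS2. The MEK5DD difference of THBS2 between lines ranged from -2.79 to -2.24. THBS2 also moved with the scale. In MDA-MB-231 ERK5-ko against parental it was 2.99 with a pseudocount of 1 and 3.47 with voom, and against MEK5DD 7.50, 4.61 and 9.14 with pseudocounts of 0.1 and 1 and with voom. In MDA-MB-231 MEK5DD it was -4.09, -1.63 and -5.68 under these, -2.21 under median-ratio scaling and -2.18 under quantile normalization, and its MEK5DD difference between lines was -4.31, -1.78 and -5.92. THBS3 in ERK5-ko against MEK5DD was 1.61, 1.22 and 1.66 under these, and 1.24 under quantile normalization. The ERK5-ko difference between lines was 5.11, 3.98 and 5.28 for THBS2, and for THBS3 2.17 with a pseudocount of 1, 2.45 under quantile normalization and 2.46 with voom. The THBS1 share of the family was 98.7%, 97.1%, 99.8%, 98.1% and 99.6% by reads in MDA-MB-231 parental, ERK5-ko, MEK5DD, Hs-578T parental and ERK5-ko cells. By longest transcripts it was 97.5%, 95.7%, 99.6%, 95.8% and 99.1%, and 96.0% in Hs-578T MEK5DD.

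Counts of partner genes moved as follows. In MDA-MB-231 ERK5-ko, 1 higher became 2 with a pseudocount of 0.1, 4 under median-ratio scaling, 3 under quantile normalization and voom, 6 with no fold threshold and 1 to 2 leaving out a library, and 2 lower became 1 with a pseudocount of 1 and 5 with no fold threshold. In MDA-MB-231 MEK5DD, 6 higher became 12 with a pseudocount of 0.1 and 14 with no fold threshold, and 7 lower became 11 with voom and 26. In Hs-578T ERK5-ko, 7 higher and 9 lower became 14 and 19 with no fold threshold, and 7 higher became 6 to 11 leaving out a library, the highest without parental replicate 2. In Hs-578T MEK5DD, 3 higher became 5 under median-ratio scaling, 1 in a fit of that line alone, 9 with no fold threshold and 2 to 5 leaving out a library, and 1 lower became 3 with a pseudocount of 0.1 and voom, 16 with no fold threshold and 0 to 1 leaving out a library.

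Over all genes, the 147 called lower in MDA-MB-231 ERK5-ko were 285, 89 and 324 with pseudocounts of 0.1 and 1 and voom, the 449 in Hs-578T ERK5-ko 710 and 788 with a pseudocount of 0.1 and voom, and the 204 in Hs-578T MEK5DD 411, 132 and 458. The 544 lower in Hs-578T ERK5-ko against MEK5DD were 846 with voom, and the 398 higher in Hs-578T MEK5DD were 240 in a fit of that line alone. Quantile normalization moved the share of calls that were higher in Hs-578T MEK5DD from 66.1% to 77.7%. The fold thresholds enter these shares. By the limma adjusted p alone, 884 genes were higher and 2329 lower in Hs-578T MEK5DD, and 2706 and 2707 in Hs-578T ERK5-ko. In MDA-MB-231 ERK5-ko these counts were 949 and 1430, and in Hs-578T ERK5-ko against MEK5DD 4224 and 2642.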
